A study of Mus musculus with 2 samples.

Results

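The cells described here were the natural killer (NK) cells and group 1 innate lymphoid cells (group 1 ILCs) of the mouse liver, 128 of the 7919 non-parenchymal cells (NPCs) kept from both libraries. They were selected on their own transcripts: at least 2 unique molecular identifiers (UMIs, each counting 1 captured mRNA molecule) summed over *Ncr1*, *Klrb1a*, *Klrb1c*, *Klra4*, *Klra7*, *Klra8*, *Klra9* and *Gzma*, at least 1 of them from *Ncr1*, *Klrb1a* or *Klrb1c*, none of *Cd3d*, *Cd3g* or *Cd79a*, and no more than 3 of *Clec4f* and *Cd5l* together. This selection is called the NK and ILC gate, and the levels of its marker genes are therefore a description of how the cells were chosen. The gate held 46 of 3710 cells in the NASH library and 82 of 4209 cells in the control library.

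Single-cell RNA-seq was made from liver NPCs of male C57BL/6 mice, 8 weeks old, that were fed for 6 weeks either a methionine- and choline-deficient (MCD) diet, which gives the NASH (nonalcoholic steatohepatitis) group, or a control diet. The paper names no transgene or mutation for these mice. For each diet 3 mice gave 1 pooled BD Rhapsody library, so that 1 library of each diet was available, differences between mice and between library preparations cannot be told apart from the diet, and no test between NASH and control was made. Intervals are 95% exact intervals that cover counting error only, and levels are given as CPM, the UMIs of a gene scaled to a common total of UMIs in the cells concerned.

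NK cells kill infected or transformed cells by releasing perforin and granzymes and secrete interferon gamma and chemokines. The liver holds them beside group 1 ILCs (ILC1), resident cells that share the receptor NKp46 (*Ncr1*) and NK1.1 (*Klrb1c*) with them. Circulating NK cells are known for *Eomes* and the integrin CD49b (*Itga2*), and liver ILC1 for CD49a (*Itga1*), *Cxcr6*, CD200R (*Cd200r1*) and the IL-7 receptor (*Il7r*). Both read their targets through killer cell lectin-like receptors: inhibitory members bind MHC class I and hold killing back, and activating members release it.

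The *Klra* genes of the gate encode the Ly49 receptors. *Klra4* (Ly49D) and *Klra8* (Ly49H) are activating and signal through a partner adaptor, whereas *Klra7* (Ly49G) and *Klra9* (Ly49I) are inhibitory and carry an immunoreceptor tyrosine-based inhibitory motif (ITIM) close to the start of the protein. The first 60 coding bases of the 4 genes are shown because the motif lies in them. Capitals mark the 18 bases, 16 to 33 from the A of the start codon, that encode the ITIM in *Klra7* and *Klra9* and the bases aligned with them in *Klra4* and *Klra8*.
Klra4: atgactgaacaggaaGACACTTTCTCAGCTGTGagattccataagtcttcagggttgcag
Klra8: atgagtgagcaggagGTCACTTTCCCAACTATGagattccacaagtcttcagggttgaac
Klra7: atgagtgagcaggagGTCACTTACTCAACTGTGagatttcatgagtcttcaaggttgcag
Klra9: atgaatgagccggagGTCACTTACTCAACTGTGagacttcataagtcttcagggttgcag
In the capital letters both activating genes carried the substitution A23T relative to *Klra7*, which turns the tyrosine codon TAC into TTC, and *Klra9* carried none. *Klra4* further carried T17A and A28G, and *Klra8* carried T25C and G31A. The sequences are of the GRCm38 reference as annotated by GENCODE and were not read from these libraries. All 4 genes lie on the minus strand of chromosome 6, *Klra4* at chr6:130043731-130067271, *Klra8* at chr6:130115226-130129898, *Klra9* at chr6:130178675-130193112 and *Klra7* at chr6:130218605-130233322, inside the NK gene complex, where 24 *Klr* genes span 8.98 Mb. Coding sequences of the family are close copies of each other, with 91.9% identity between *Klra8* and *Klra9* and 95.9% between *Klra9* and *Klra3*, so that reads may have been split between them during counting and the level of a single *Klra* gene is uncertain to that degree.

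The gate matched its label by the markers it was chosen on. *Ncr1* was counted in 36 of 46 gate cells in NASH and in 71 of 82 in control, *Klrb1c* in 43 and 75 cells, *Gzma* (granzyme A) in 23 and 48 cells, and *Klrb1a* in 17 and 40 cells. *Eomes*, which the selection did not use, was counted in 13 and 25 cells. In B cells, chosen by *Cd79a* and *Cd79b*, the gate marker *Gzma* stood at 7.63 CPM in NASH and 7.73 CPM in control. In the gate it stood at 5880 CPM and 6699 CPM. The part of free RNA in the marker signal was not tested. After every cell was thinned to 1000 UMIs, which left 40 and 69 gate cells, *Ncr1* was still counted in 75% of NASH and 78.3% of control gate cells, and *Gzma* in 50% and 52.2%.

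Single genes that define other lymphocytes were close to absent, while the wider marker lists were not. *Cd5* had no UMI in either gate, and *Ms4a1* (CD20) none, which allows up to 3 UMIs of each per library. *Cd4* had 0 UMIs in NASH and 1 in control, and *Cd3e*, a CD3 chain that the selection did not use, had 6 UMIs in 3 NASH cells and 22 UMIs in 8 control cells. The 11 T cell markers together had 57 UMIs in 23 of 46 NASH cells and 123 UMIs in 41 of 82 control cells, 645 and 853 CPM, against 5446 and 5840 CPM in T cells. The 11 B cell markers had 40 UMIs in 23 NASH cells and 227 UMIs in 73 control cells, 452 and 1574 CPM, most of them from *Igkc* and *Ighm*, and stood at 445 and 1740 CPM in T cells. ILC2 markers (*Il1rl1*, *Il13*, *Il5*, *Il17rb*, *Areg*) summed to 0 UMIs in NASH and 1 in control, basophil and mast cell markers to 0 in both libraries, and stellate cell markers to 0 in both.

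Myeloid and endothelial transcripts were not absent, and in NASH most of them lay in few cells. The 9 Kupffer cell and macrophage markers summed to 135 UMIs in the NASH gate and 65 in the control gate, the 7 monocyte markers to 458 and 295, the 7 dendritic cell markers to 264 and 162, and the 12 endothelial markers to 357 and 342. With cells of 10 or more UMIs of myeloid or endothelial markers called mixed cells, the NASH gate held 8 (4 by myeloid and 6 by endothelial markers, 2 of them by both) and the control gate 5 (1 and 4). This limit was chosen after the values were seen. Mixed cells were deep, with a median of 2512.5 UMIs in NASH and 2936 in control, against 1553.5 and 1638 UMIs over the whole gate. Without them the Kupffer sums stood at 38 UMIs in NASH and 53 in control (585 and 403 CPM). The monocyte sums stood at 156 and 284 UMIs (2401 and 2161 CPM) and the dendritic cell sums at 59 and 151 (908 and 1149 CPM). Most of these control UMIs thus lay outside the mixed cells. In T cells the same lists stood at 560 and 358, 2423 and 2648, and 1781 and 855 CPM. The dendritic list holds *Itgax*, a gene higher in the gate than in T cells. It had 61 UMIs in the NASH gate and 124 in the control gate. Without the mixed cells the endothelial sums stood at 68 and 69 UMIs, 1047 CPM in NASH and 525 CPM in control. The median log2 diet ratio of the endothelial markers was 1.27 without the mixed cells, against 0.71 with them. Scrublet, which looks for cells caught together, marked no gate cell; it marked 57 of 4209 control cells and 3 of 3710 NASH cells, too few to serve as a check in NASH. Diet ratios that crossed 1.5-fold or changed sign without them are given both ways.

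The gate made up a smaller part of the NASH library than of the control library. It held 1.24% of NASH cells (0.909 to 1.65) and 1.95% of control cells (1.55 to 2.41), and without the mixed cells 1.02% and 1.83%. The share depends on which other cells were recovered. Among gate and T cells together the gate held 11.7% in NASH (8.72 to 15.3) and 13.4% in control (10.8 to 16.4), intervals that overlap. Once B cells, which numbered 217 in NASH and 749 in control, were added, the order turned, to 7.55% in NASH and 6.03% in control. With 1 library of each diet none of these shares has a replicate.

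Some cells lay close to the limits of the selection. Of the gate cells 5 in NASH and 3 in control had exactly 2 marker UMIs, just inside, and 12 and 23 further cells had exactly 1 and lay just outside. The median gate cell had 12.5 marker UMIs in NASH and 14 in control. Cells that met every other criterion but carried *Cd3d* or *Cd3g* numbered 56 in NASH and 171 in control, 8 and 19 of them by a single UMI. These cells are called NK-receptor T cells below. Of all cell labels 21 occurred in both libraries, and no gate cell shared its label with a gate cell of the other library.

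Against T cells of the same library, a larger part of the lectin-like receptors than of the cytotoxic genes was higher in the gate. T cells were chosen by at least 2 UMIs of *Cd3d*, *Cd3g* and *Cd3e* and numbered 346 in NASH and 528 in control. Of 2843 genes compared, 44 (1.55%) were at least 2-fold higher in the gate in both libraries and 56 (1.97%) at least 2-fold lower. All 9 killer cell lectin-like receptors other than Ly49 that could be compared were among the higher genes, whereas 2 of 10 cytotoxic genes and 1 of 6 cytokine genes were. *Gzma*, a gate marker, was not compared. The order by size was another one. *Prf1*, at log2 ratios of 3.15 in NASH and 3.27 in control, lay below *Klrb1b* and *Klri2* but above the other receptors, such as *Klrc1* (1.43 and 1.66) and *Klrk1* (1.52 and 1.81). *Klra1* (Ly49A, inhibitory), the 1 Ly49 gene outside the selection that could be compared, was not, with 56.5 CPM in the gate and 138 CPM in T cells in NASH, and 69.3 and 74.6 CPM in control. Since cells of both populations were chosen by their own counts, these values describe the choice and were not tested.

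*Klrb1b* (NKR-P1B), an inhibitory receptor encoded beside the NK1.1 gene, headed the list. It stood at 837 CPM in the gate and 18.1 CPM in T cells of the NASH library, and at 985 and 31.6 CPM in the control library, log2 ratios of 5.48 (4.61 to 6.6) and 4.95 (4.41 to 5.56). *Klri2*, a lectin-like receptor that pairs with *Klre1*, followed with 588 against 36.1 CPM in NASH and 596 against 22 CPM in control. *Klre1* itself reached 1504 against 379 CPM in NASH and 1435 against 364 CPM in control. *Klrb1f*, *Klrc1* (NKG2A), *Klrc2* (NKG2C), *Klrd1* (CD94, the partner of the NKG2 chains), *Klrg1* and *Klrk1* (NKG2D) completed the group.

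The signalling side of these receptors was shared less evenly. *Fcer1g*, the adaptor through which NKp46 signals, was at 3517 against 396 CPM in NASH and 3440 against 325 CPM in control, log2 ratios of 3.15 (2.90 to 3.40) and 3.40 (3.20 to 3.61). Its level in B cells, 1086 CPM in NASH and 499 CPM in control, lay above that in T cells, and the part of free RNA in its T cell level was not tested. *Cd244* (2B4), a receptor for CD48, was at 384 against 52.6 CPM in NASH and 333 against 38.3 CPM in control. *Lat2*, a linker in the same signalling chain, was also among the 15 highest genes.

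Among cytotoxic genes *Prf1* (perforin) separated the gate most, with 950 against 107 CPM in NASH and 1089 against 113 CPM in control, a log2 ratio of 3.15 (2.67 to 3.64) in NASH and 3.27 (2.92 to 3.63) in control. *Gzmb* also passed 2-fold in both libraries, at 2261 against 1104 CPM in NASH and 2496 against 1202 CPM in control. *Nkg7*, a granule membrane protein, was the less selective one, with 2657 against 1878 CPM in NASH and 3495 against 1675 CPM in control. *Ccl5* was abundant in both populations, at 12936 against 8374 CPM in NASH and 16165 against 6570 CPM in control.

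*Eomes* and *Irf8* were the transcription factors above 2-fold among 15 compared, and *Lef1*, a factor of naive T cells, was below. *Irf8* was at 667 against 168 CPM in NASH and 714 against 99.5 CPM in control. *Car2* (carbonic anhydrase 2), *Atp1b1*, *Itgax* (CD11c), *Cd9*, *Plek* and *Gem* completed the 15 highest genes. All 11 T cell markers were lower in the gate, *Cd8a* at 11.3 against 550 CPM in NASH and 55.5 against 526 CPM in control, and *Ccr7*, the receptor that leads lymphocytes to lymph nodes, had no UMI in either gate against 83.8 CPM in NASH and 73.7 CPM in control T cells. Without the mixed cells 46 genes were higher, 41 of them among the 44, and 99 were lower, 52 of them among the 56.

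**Figure D1:**
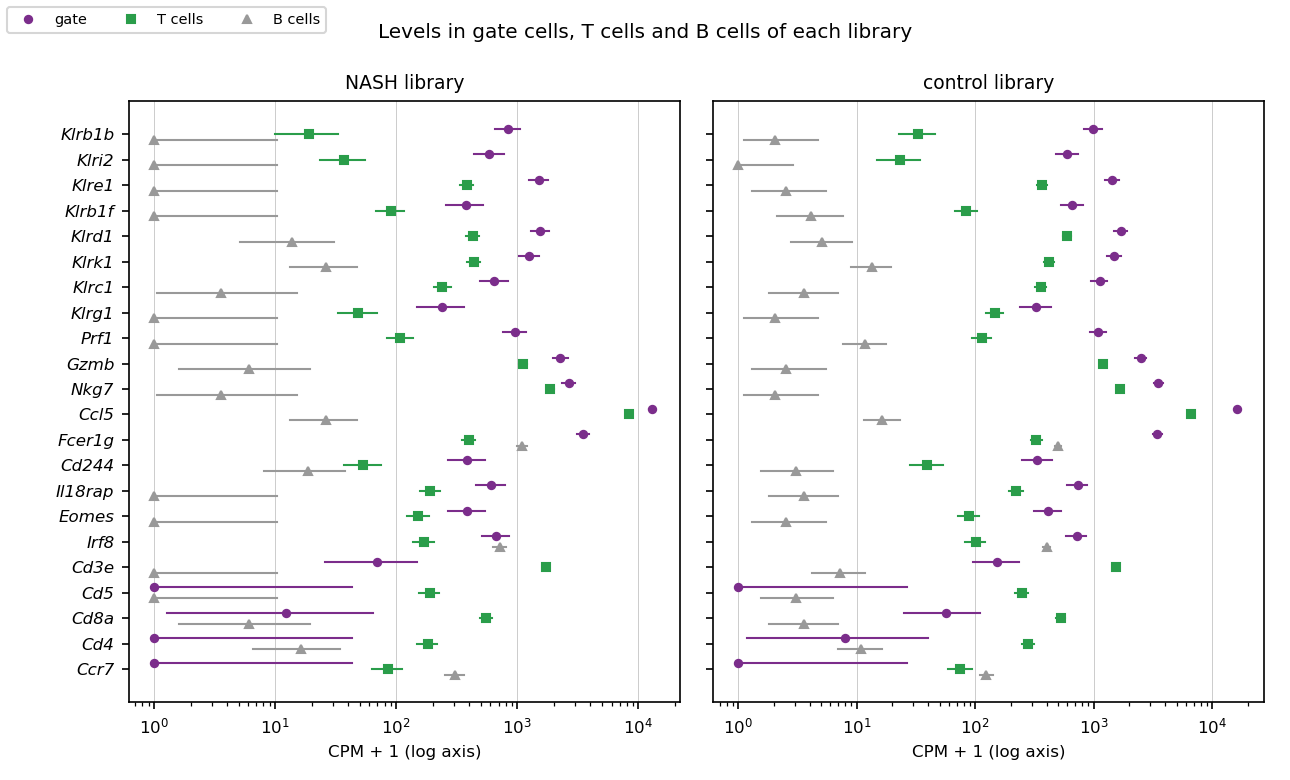
Level of named genes (CPM + 1, log axis) in gate cells, T cells and B cells of the NASH library (left) and the control library (right), with 95% exact counting intervals. *Klrb1b*, *Klri2*, *Prf1* and *Fcer1g* lie far above the T cells in both libraries, *Nkg7* and *Ccl5* lie closer to them, and *Cd3e*, *Cd5*, *Cd8a* and *Cd4* lie far below.

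The NK-receptor T cells had part of this receptor set and lacked another part. They were chosen on the same markers as the gate. Values of *Ncr1*, *Klrb1c*, *Klra4*, *Klra7*, *Klra8* and *Klra9* in them are therefore a description, whereas *Klra1* and *Klrb1b* had no part in the choice. In the NK-receptor T cells *Klrb1c* was at 1142 CPM in NASH and 1639 CPM in control, close to the gate's 1209.9 and 1858 CPM. *Klra4* had no UMI in either library and *Klra8* none in NASH and 45.5 CPM in control, whereas in the gate *Klra4* stood at 961 CPM in NASH and 527 CPM in control and *Klra8* at 859 and 791 CPM. The inhibitory *Klra9* (1095 CPM in NASH, 350 CPM in control) and *Klra7* (562 and 219 CPM) were present in them, and *Klra1* was higher there, at 451 and 179 CPM, than in the gate at 56.5 and 69.3 CPM. *Ncr1*, at 156 and 139 CPM, and *Klrb1b*, at 0 and 68.3 CPM, were low.

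Ly49 genes were carried as combinations by single cells. Of the 9 Ly49 genes counted, at least 1 was found in 58.7% of gate cells in NASH and 45.1% in control, against 22.5% and 18.4% of T cells and 0 of 217 and 3 of 749 B cells. These T cells included 55 of the 56 NK-receptor T cells in NASH and 163 of the 171 in control. Of all NK-receptor T cells 57.1% in NASH and 42.1% in control carried one. *Klra4*, *Klra7*, *Klra8* and *Klra9* are among the genes counted and were gate markers. The excess over T cells and B cells is thus in part a description of the selection. Cells with 3 or more Ly49 genes numbered 13 of 46 in NASH and 20 of 82 in control, with up to 5 genes in a NASH cell and 6 in a control cell. Both activating genes were often found in the same cell, as 8 of the 11 *Klra4* cells in NASH and 11 of the 15 in control also had *Klra8*. Over all gate cells *Klra8* was found in 14 of 46 and 20 of 82. Sharing was not limited to the activating pair. Of the same *Klra4* cells 7 in NASH and 5 in control had *Klra3*, 6 and 8 had *Klra7*, and 4 and 7 had *Klra9*. Since the copies are similar, an unknown part of these combinations may come from reads of 1 gene assigned to another.

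The gate was then split by genes known to differ between both cell types. A cell with a UMI of *Eomes* or *Itga2* and none of *Itga1*, *Cxcr6*, *Cd200r1* and *Il7r* was placed on the NK side, and a cell with the reverse on the ILC1 side. T cells carry these ILC1 genes too. *Cxcr6* was counted in 60.4% of T cells in NASH and 57.8% in control, against 39.1% and 29.3% of gate cells. *Il7r* was counted in 53.8% and 52.7% of T cells, against 23.9% and 37.8% of gate cells. *Itga1* was in 37.3% and 29.7% of T cells, against 43.5% and 30.5%, and *Cd200r1* was rarer in T cells. The part of T cells in the ILC1 side was not tested. The NK side took 13 of 46 cells in NASH (28.3%, 16 to 43.5) and 25 of 82 in control (30.5%, 20.8 to 41.6). The ILC1 side took 18 in NASH (39.1%, 25.1 to 54.6) and 34 in control (41.5%, 30.7 to 52.9). The proportions of both libraries thus lay within each other's counting intervals. After thinning to 1000 UMIs the NK side took 10 of 40 cells in NASH (25%) and 19 of 69 in control (27.5%). The ILC1 side then took 14 of 40 (35%) and 32 of 69 (46.4%), a wider gap. Genes of both sides were found in 8 and 10 cells, deeper ones with a median of 2579 UMIs in NASH and 2253 in control, and 7 and 13 cells had none. Depth differed little on the NK side, 1522 and 1540 UMIs, whereas ILC1 side cells had 1516 UMIs in NASH and 1933.5 in control. The names stand for the genes that placed the cells; a cell in which none of them was captured can be of either type, and 3 of the 7 such cells in NASH and 9 of the 13 in control carried a Ly49 gene.

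The 2 sides differed in the same way in both libraries in genes that had no part in the placement. Of 597 genes compared, 19 (3.18%) were at least 2-fold higher on the NK side in both libraries, and 23 (3.85%) at least 2-fold higher on the ILC1 side. *Prf1*, *Gzmb*, *Itgam*, *Itga4* and *Irf8* were among those of the NK side, beside the gate markers *Klra4*, *Klra8*, *Klra9* and *Gzma*, and *Cd7*, *Cd160*, *Asb2*, *Inpp4b*, *Maf* and *Ltb* among those of the ILC1 side. Without the mixed cells 20 and 30 genes were found, with 16 and 19 shared.

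**Figure D2:**
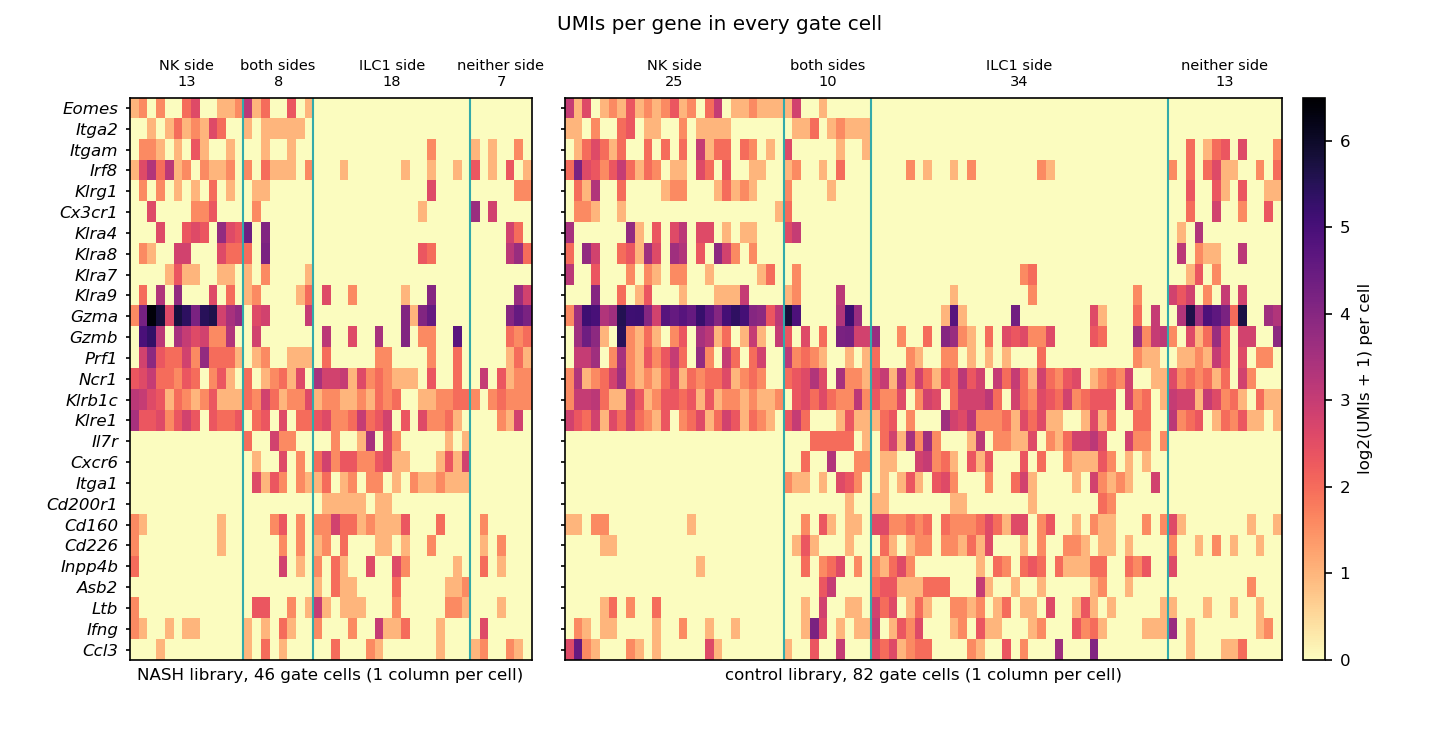
Heat map of log2 (UMIs + 1) per cell, with 1 column per gate cell, 46 NASH cells on the left and 82 control cells on the right, ordered as NK side, both sides, ILC1 side and neither side. *Gzma* fills every column of the NK side, the *Klra* genes fill many of them, *Cd160* and *Asb2* lie mostly on the ILC1 side, and *Ncr1* and *Klrb1c* run through all 4 blocks.

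*Gzma* was found in 38 of 38 NK side cells and in 12 of 52 ILC1 side cells. It stood at 18731 CPM on the NK side and 1807 CPM on the ILC1 side in NASH, and at 13690 and 988 CPM in control, log2 ratios of 3.36 (2.96 to 3.81) and 3.78 (3.41 to 4.19). *Gzma* was a gate marker, but a cell could enter without it. *Prf1*, which the selection did not use, was at 2907 against 394 CPM in NASH and at 2336 against 314 CPM in control, log2 ratios of 2.84 (1.97 to 3.91) and 2.87 (2.19 to 3.67). *Gzmb* differed less, with log2 ratios of 1.33 (0.89 to 1.78) in NASH and 1.04 (0.67 to 1.41) in control. *Cma1* (chymase, a protease known from mast cells) had 9 and 17 UMIs on the NK side of the NASH and control libraries and none on the ILC1 side of either, at least 13.3-fold higher over both libraries with the floor of 3 UMIs.

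Ly49 genes were counted more often on the NK side; *Klra4*, *Klra7*, *Klra8* and *Klra9* were gate markers, so that these values are a description. All 13 NK side cells in NASH and 20 of 25 in control carried at least 1, against 5 of 18 and 4 of 34 ILC1 side cells, and 3 or more were found in 7 and 13 NK side cells. *Klra4* had 40 UMIs on the NK side in NASH and 54 in control and none on the ILC1 side, at least 48.2-fold higher over both libraries. *Klra8* had 26 against 7 UMIs in NASH and 94 against 0 in control. *Klra3* (Ly49C) had 16 against 1 and 23 against 3 UMIs, and *Klra7* 9 against 0 and 26 against 5. *Klra9* was the least one-sided of those named, with 33 against 23 UMIs in NASH and 34 against 5 in control, log2 ratios of 1.05 (0.25 to 1.89) and 3.31 (2.07 to 5.14).

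Of the adhesion and homing genes *Itgam* (CD11b, known from mature NK cells) had 12 against 2 UMIs in NASH and 45 against 0 in control, and *Itga4* 34 against 7 and 80 against 7. *Cx3cr1*, the fractalkine receptor, had 13 against 1 UMIs in NASH and 7 against 0 in control, but most of its UMIs lay in cells that were placed on no side or on both, 18 and 2 in NASH and 15 and 3 in control. *Irf8* was at log2 ratios of 3.52 (2.18 to 5.62) in NASH and 3.49 (2.55 to 4.75) in control, with 102 UMIs on the NK side and 13 on the ILC1 side over both libraries. *Ccl5* (1.12 and 1.59) and *Lgals1* (2.36 and 2.83) also lay above 2-fold. *Ly6c2* was on the NK side in NASH, with 68 against 21 UMIs, and not in control, with 32 against 47.

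On the ILC1 side *Asb2*, a ubiquitin ligase subunit, had 13 UMIs in NASH and 37 in control and none on the NK side, where it was at least 10.8-fold lower. *Cd7*, a surface protein of T and NK lineage cells, was one of the more abundant genes of the group: the NK side had 11 UMIs and the ILC1 side 126 in NASH, and 18 and 222 in control, log2 ratios of -2.92 (-4.02 to -2.09) and -2.93 (-3.74 to -2.27). *Cd160*, an immunoglobulin-like receptor, was at -2.18 (-4.29 to -0.81) in NASH and -2.53 (-3.98 to -1.50) in control. *Inpp4b*, a phosphoinositide phosphatase, was at -1.94 (-4.53 to -0.36) and -4.41 (-10.3 to -2.44), and the transcription factor *Maf* at -1.60 (-2.99 to -0.55) and -1.77 (-2.75 to -0.98). *Ltb* (lymphotoxin beta) was at -2.35 and -1.60 and *Cd226* (DNAM-1), an activating receptor, at -1.18 and -3.12. *Clec4g* and *Igfbp7*, genes of the sinusoidal endothelium, were also counted on the ILC1 side and dropped out without the mixed cells.

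Of 6 cytokine genes compared, *Ccl5* was at least 2-fold higher on the NK side and *Ltb* on the ILC1 side in both libraries, and the other 4 did not pass 2-fold in both. *Ifng* had 6 UMIs on the NK side and 17 on the ILC1 side in NASH and 10 and 44 in control, log2 ratios of -0.89 (-2.60 to 0.44) and -1.42 (-2.63 to -0.46). The receptors *Klrb1b* (-0.95 and -2.65) and *Klrc1* (-0.71 and -1.41) had the same sign in both libraries. *Cd3e*, 1 of the 11 T cell markers, had 0 UMIs on the NK side and 6 on the ILC1 side in NASH and 2 and 14 in control. The ILC1 side also held more UMIs in total, 30435 against 20981 in NASH and 63735 against 40248 in control. The part of T cell transcripts in the genes above was not tested. *Ncr1* was close to equal between the sides, at 0.09 (-0.56 to 0.72) in NASH and 0.01 (-0.44 to 0.44) in control, and *Klrk1* was at -0.37 in both.

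**Figure D3:**
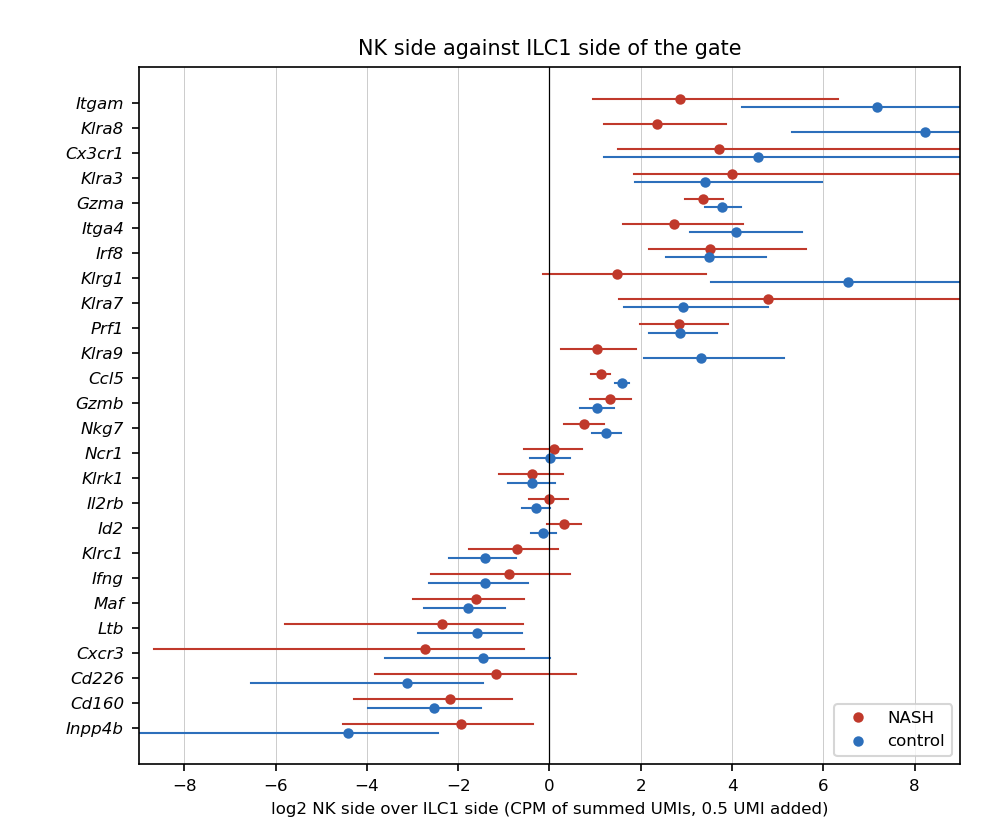
Log2 ratio of the NK side to the ILC1 side for named genes, with a NASH and a control point each and 95% exact counting intervals; lines that reach the edge of the plot go on beyond it. *Gzma*, *Prf1*, *Itga4* and *Irf8* lie to the right in both libraries, *Cd160*, *Maf* and *Ltb* to the left in both, and *Ncr1*, at 0.09 and 0.01, in the middle.

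Between the diets, the granzymes *Gzma* and *Gzmb* and perforin stayed within 1.5-fold. *Ccl3*, *Ccl4* and *Il7r* were lower, as was *Ifng*, which came within 1.5-fold without the mixed cells. Genes of macrophages and antigen presentation were higher, mostly through the mixed cells. Of 963 genes with at least 50 UMIs, 87 (9.03%) were at least 1.5-fold higher in NASH and 85 (8.83%) at least 1.5-fold lower, and scaling by the median ratio over genes gave 112 and 65. The counting interval lay beyond 0 for 68 and 61 of them. Over the same genes without the mixed cells 100 were higher and 82 lower, of which 53 and 59 were shared. The median log2 ratio of all 963 genes was -0.08, and -0.00 without the mixed cells. Counts in the gene lists below rest on few genes and are to be read against the shares of 9.03% and 8.83%.

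*Ccl3* (MIP-1 alpha), a chemokine released by activated NK cells, was at 215 CPM in NASH and 804 CPM in control. It had 19 UMIs in 12 of 46 NASH cells and 116 UMIs in 29 of 82 control cells, a log2 ratio of -1.87 (-2.69 to -1.20), and -1.56 without the mixed cells. In control 49 of the 116 UMIs came from 3 cells. *Ccl4* (MIP-1 beta), its neighbour on chromosome 11 (*Ccl3* at chr11:83647844-83649355 and *Ccl4* at chr11:83662584-83664683, GRCm38), was at 464 CPM in NASH and 1089 CPM in control, with 41 UMIs in 13 cells and 157 UMIs in 31 cells, a log2 ratio of -1.22 (-1.76 to -0.73) and -0.90 without the mixed cells. In T cells the same ratios were 0.05 and 0.36.

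Both chemokines were lower in NASH on the NK side and on the ILC1 side. *Ccl3* had 1 UMI on the NK side in NASH and 40 in control (47.7 and 994 CPM), 22 of the 40 in 1 cell. On the ILC1 side it had 7 and 58 UMIs (230 and 910 CPM). *Ccl4* had 3 and 45 UMIs on the NK side (143 and 1118 CPM) and 22 and 87 on the ILC1 side (723 and 1365 CPM). Of those 87, 19 lay in 1 mixed cell. In cells of both sides *Ccl3* was lower (266 and 551 CPM), but *Ccl4* had 14 UMIs in NASH and 0 in control. In cells of neither side *Ccl3* was at 329 and 325 CPM and *Ccl4* at 110 and 1355 CPM. The *Ccl4* UMIs of NASH were held by few cells, 23 of 41 by 3 cells.

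*Ifng* was at 384 CPM in NASH, with 34 UMIs in 17 cells, and at 666 CPM in control, with 96 UMIs in 37 cells. The log2 ratio was -0.78 (-1.40 to -0.21), and -0.44 without the mixed cells, which is less than 1.5-fold. *Ccl5* (-0.32, -0.42 to -0.22), *Ltb* (-0.35) and *Fgl2* (-0.29) stayed within 1.5-fold. Of the 6 cytokine genes with 50 UMIs or more, 3 were thus lower by 1.5-fold, none was higher, and the median was -0.56 (-0.38 without the mixed cells). *Csf2* and *Lta* hung on single cells: all 17 *Csf2* UMIs of NASH lay in 1 cell, against 7 in 6 control cells, and *Lta* had 1 UMI in NASH against 21 in control, 20 of them in 1 mixed cell.

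Of 7 cytotoxic genes with enough UMIs 1 was higher, 1 lower, and the median was -0.14 (0.19 without the mixed cells). Over all genes 9.03% were higher and 8.83% lower, so that these counts do not set the list apart. *Gzma*, part of the selection, was at 5880 CPM in NASH and 6699 CPM in control, a log2 ratio of -0.19 (-0.34 to -0.03), and 0.27 without the mixed cells. *Gzmb* was at 2261 and 2496 CPM (-0.14, -0.40 to 0.11) and *Prf1* at 950 and 1089 CPM (-0.19, -0.60 to 0.19), and both turned positive without the mixed cells, at 0.19 and 0.27. *Lamp1* (CD107a), the granule membrane protein used as a mark of degranulation, had 33 UMIs in 19 NASH cells and 24 UMIs in 17 control cells, a log2 ratio of 1.16 (0.36 to 1.99), and 1.02 without the mixed cells. *Lyst*, needed for granule maturation, had 7 UMIs in 5 NASH cells and 49 UMIs in 27 control cells, a log2 ratio of -2.02 (-3.49 to -0.95), -1.71 without the mixed cells, and -0.31 in T cells. *Gzmc* had no UMI in NASH and 34 UMIs in 7 control cells, 28 of them in 3 cells, and was at least 6.95-fold lower in NASH with the floor of 3 UMIs.

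**Figure D4:**
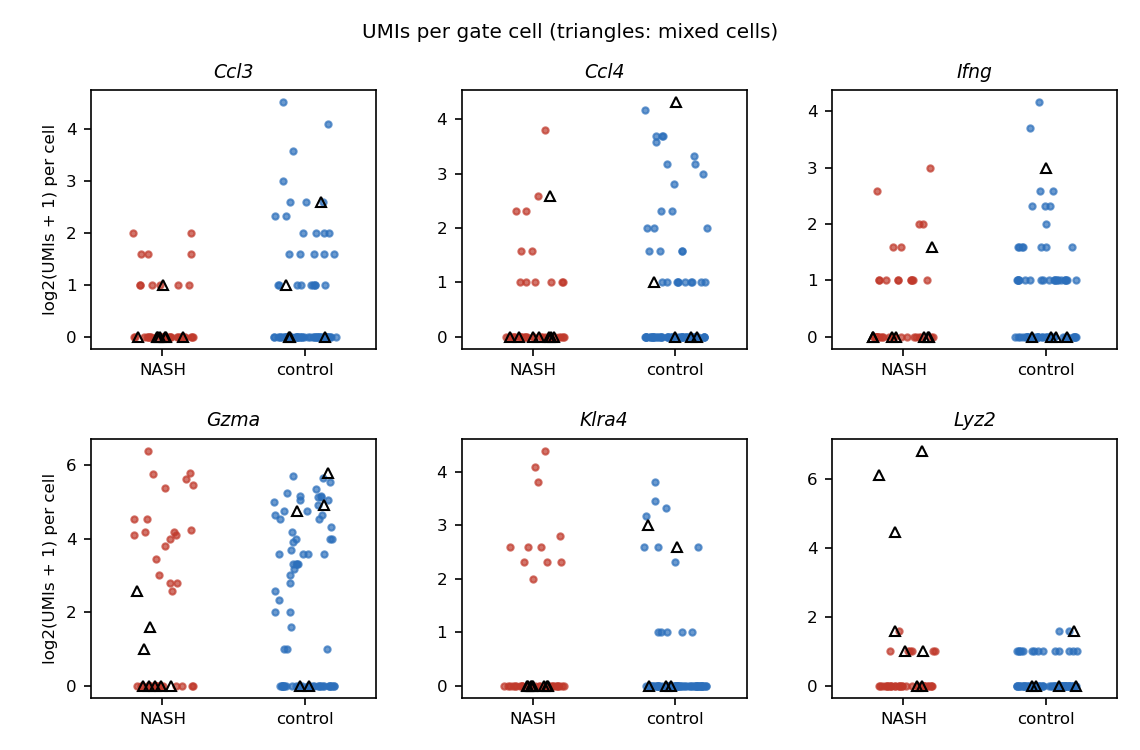
UMIs of 6 genes, as log2 (UMIs + 1), in each gate cell, with NASH cells left of control cells, points jittered sideways and mixed cells as triangles. *Gzma* spans the same range in both libraries, NASH cells with *Ccl3* hold at most 3 UMIs whereas control cells reach 22, and the high *Lyz2* values are those of mixed NASH cells.

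Receptors of the gate mostly kept to within 1.5-fold. Of the 9 lectin-like receptors outside the selection with enough UMIs, *Klrb1f* (-0.81, -1.44 to -0.23; 33 UMIs in NASH and 95 in control) and *Klrc1* (-0.78, -1.25 to -0.35; 57 and 161 UMIs) were lower and none was higher, with a median of -0.23 (-0.09 without the mixed cells). *Klrc1* encodes NKG2A, an inhibitory receptor for the class I molecule Qa-1, while its partner *Klrd1* was at -0.13, and 0.11 without the mixed cells, and *Klrk1* at -0.24. Among the gate markers *Klra4* was higher in NASH, at 961 CPM against 527 CPM in control (0.87, 0.40 to 1.33), as was *Klra9*, at 916 against 562 CPM (0.71, 0.24 to 1.17). *Klrb1c* was lower, at 1209.9 against 1858 CPM (-0.62, -0.96 to -0.29), and *Klra7* was at -0.88 (-1.94 to 0.02). Without the mixed cells *Klra4* was at 1.42 and *Klra9* at 1.03, and *Klrb1c* at -0.53 and *Klra7* at -0.50 were no longer past 1.5-fold. *Klra8* was at 859 and 791 CPM. The *Klra4* cells were 11 of 46 in NASH and 15 of 82 in control, and 49 of its 85 NASH UMIs came from 3 cells.

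*Hcst* (DAP10), the adaptor through which NKG2D signals, had 23 UMIs in NASH and 77 in control, a log2 ratio of -1.02 (-1.78 to -0.35). It was the 1 gene of 8 activating adaptors and co-receptors past 1.5-fold, where 8.83% of all genes were lower. *Fcer1g* was at 3517 CPM in NASH and 3440 CPM in control. Of 7 MHC class I genes none passed 1.5-fold, and the median was -0.02.

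Of 8 cytokine receptor and kinase genes 2 were lower, 1 of them beyond counting error, against 8.83% of all genes. *Il7r*, one of the genes that placed cells on the ILC1 side, had 35 UMIs in 11 NASH cells and 114 UMIs in 31 control cells, at 396 and 791 CPM, a log2 ratio of -0.98 (-1.59 to -0.44), and -0.99 without the mixed cells. *Il2ra*, the high-affinity IL-2 receptor chain, was at 158 CPM in NASH and 257 CPM in control, a log2 ratio of -0.67 (-1.70 to 0.22) whose interval includes 0, and -0.06 without the mixed cells. *Il2rb*, the chain shared by the IL-2 and IL-15 receptors, was at 2691 CPM in NASH and 3682 CPM in control (-0.45, -0.68 to -0.23). Of the other ILC1 side genes *Cxcr6* was at 0.42 (-0.13 to 0.96), *Itga1* was at -0.14 (-0.78 to 0.46), and *Asb2* had 13 UMIs in NASH and 50 in control, a log2 ratio of -1.20 (-2.24 to -0.34), and -0.91 without the mixed cells.

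Among 11 transcription factors *Foxo1* (-1.02, -2.07 to -0.13) and *Bhlhe40* (-0.76, -1.45 to -0.13) were lower, and *Eomes* was at -0.08 (-0.74 to 0.54), and 0.38 without the mixed cells. *Klf2*, which keeps lymphocytes in circulation, was at 565 CPM in NASH and 381 CPM in control, a log2 ratio of 0.57 (-0.01 to 1.15) just under 1.5-fold, and 0.83 without the mixed cells. *Itgam*, a mark of mature NK cells, was at 226 CPM in NASH and 485 CPM in control (-1.08, -1.90 to -0.37; -0.74 without the mixed cells). *Cxcr4*, a chemokine receptor that retains cells in bone marrow, was higher in NASH with 39 UMIs in 16 cells, against 30 UMIs in 17 control cells (1.08, 0.36 to 1.82), and was at 1.25 in T cells. *Cx3cr1* had 34 UMIs in NASH and 25 in control (1.14, 0.36 to 1.96), and 0.38 without the mixed cells.

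Immediate early genes, which respond within minutes to receptor signals and also to the dissociation of tissue, lay at or below the control level in NASH. The list of 14 with enough UMIs also held the heat shock genes *Hspa1a*, at 226 CPM in NASH and 264 CPM in control, and *Hspa1b*, at 520 and 721 CPM. Of these 14 genes, 3 were lower by 1.5-fold, none was higher, and the median was -0.41 (-0.26 without the mixed cells). *Egr1* had 22 UMIs in 12 NASH cells and 92 UMIs in 35 control cells (-1.33, -2.10 to -0.68), *Jun* 59 and 176 UMIs (-0.86, -1.32 to -0.44) and *Ier2* 45 and 113 UMIs (-0.61, -1.16 to -0.11; -0.52 without the mixed cells). In T cells the same 3 genes were at -0.01, -0.06 and 0.10. *Ccl3*, *Ccl4* and *Ifng* are themselves induced within hours of such signals, and their relation to the handling of the livers was not tested.

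Of 5 interferon-stimulated genes and of 7 glycolysis genes 0 passed 1.5-fold, with *Gapdh* the highest glycolysis gene at 0.56 (0.16 to 0.96). Over all genes 9.03% were higher and 8.83% lower, so that counts from so few genes cannot set these lists apart. Only 5 of the 20 interferon-stimulated genes listed had enough UMIs. *Gbp4*, an interferon-inducible GTPase with 6 UMIs in NASH and 42 in control, fell under the minimum and is given among the other observations. Proliferation was rare, with *Mki67* at 5 UMIs in NASH and 14 in control, and 1 gene of that list, *Pcna*, had enough UMIs (-0.12, -0.93 to 0.64; 0.28 without the mixed cells).

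The 12 highest genes in NASH were mostly those of macrophages and antigen-presenting cells: *Cybb*, *H2-Eb1*, *Lyz2*, *Ctss*, *H2-Ab1*, *Cd74*, *H2-Aa*, *Apoe*, *C1qb*, *Dnajb1*, *Prdx5* and *Grn*. *Lyz2* (lysozyme) had 214 UMIs in NASH and 20 in control, a log2 ratio of 4.09 (3.46 to 4.86), but 206 of the 214 lay in mixed cells, 112 of them in 1 cell, and without those cells the ratio was -0.11. *Cd74*, the MHC class II invariant chain, had 200 and 35 UMIs, 177 of the 200 in mixed cells, and was at 0.79 without them, against 3.20 with them. *H2-Aa* was at 0.07, *H2-Ab1* at 0.28 and *C1qb* at 0.32 without the mixed cells. *H2-Eb1* (2.46) and *Cybb* (3.34) stayed high, on 9 against 3 and 2 against 0 UMIs. *Dnajb1*, a heat shock co-chaperone, was a different case, with 54 UMIs in 23 NASH cells and 27 UMIs in 13 control cells, a log2 ratio of 1.69, and 1.80 without the mixed cells; it was at 1.06 in T cells.

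Of the 12 lowest genes *Igkc*, the immunoglobulin kappa constant gene, came first with 16 UMIs in 13 NASH cells and 174 UMIs in 66 control cells, a log2 ratio of -2.70 (-3.58 to -2.0). NK cells and ILC1 do not make antibodies, T cells had the same difference (-3.17), and the control library held 749 B cells against 217 in NASH; the part of free RNA in it was not tested. The others were *Hist1h1c* (10 and 72 UMIs), *Lyst*, *Ccl3*, *Mmp9* (10 and 51 UMIs, -1.59, and -1.19 without the mixed cells), *Cntrl*, *Herc1*, *Egr1*, *Ccl4*, *Asb2*, *Cdc37* and *Pik3cd*. *Pik3cd*, the PI3-kinase subunit of lymphocyte signalling, had 32 UMIs in NASH and 114 in control, a log2 ratio of -1.11, and -1.41 without the mixed cells.

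**Figure D5:**
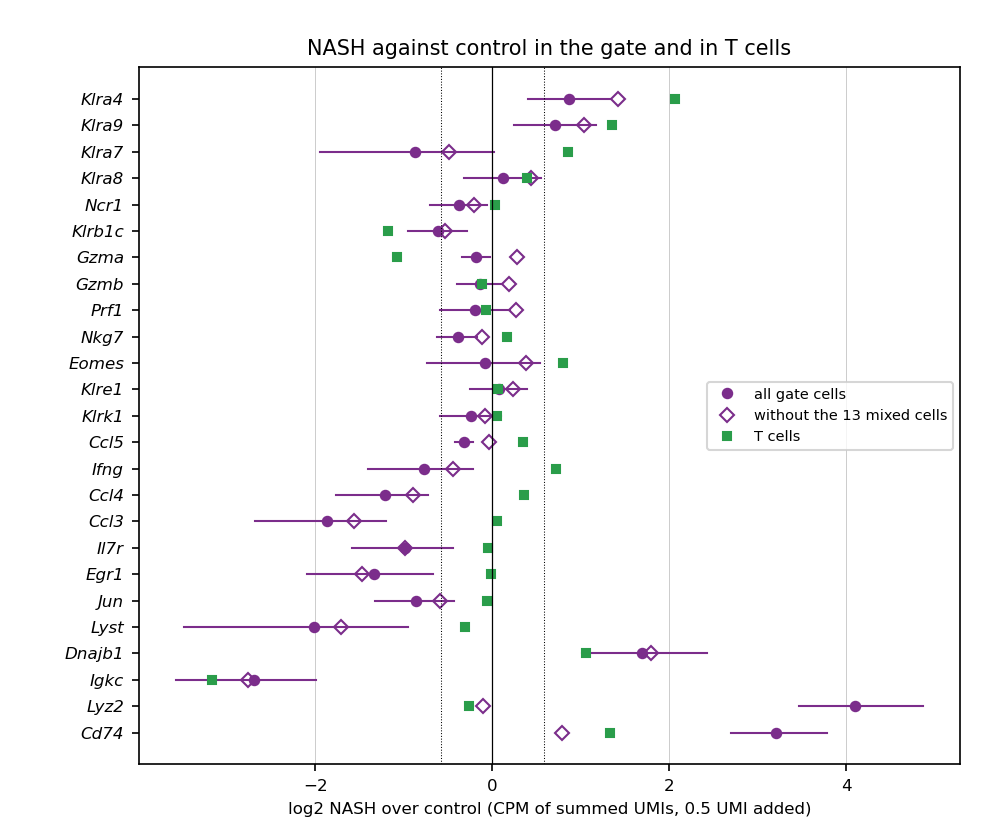
Log2 ratio of NASH to control for named genes in all gate cells, with 95% exact counting intervals, in the gate without the 13 mixed cells, and in T cells; dotted lines mark 1.5-fold either way. *Ccl3*, *Ccl4*, *Egr1*, *Il7r* and *Lyst* lie left of 0 with and without the mixed cells, *Dnajb1* right of 0 both ways, and *Lyz2* moves to -0.11 once the mixed cells are left out.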

How the data were processed

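Cells of 3 mice per diet were pooled by the authors into 1 BD Rhapsody library each, and the deposited tables hold UMI counts per gene and cell, not normalised, on GRCm38 per the labels; they were made with the Whole Transcriptome Assay Analysis Pipeline of BD, whose aligner was not given in the sources used here. The tables used here list 16383 genes in alphabetical order up to *Rad54l2*, so later genes (*Tbx21*, *Xcl1*, *Trac*, *Tnf*, mitochondrial genes) were not analysed here. The NASH table had no header line, and its columns took the names of the control table in their order, which was checked in 9 blocks of genes (r of mean levels 0.970 to 0.987 across genes, which are not independent, against 0.552 at most after a shift); 2 duplicated symbols were left out.

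Cells with at least 500 UMIs and 200 genes were kept, 3710 in NASH (median 1654 UMIs) and 4209 in control (median 1683 UMIs), and no mitochondrial limit was applied. Gate counts were summed per library, 88438 UMIs in NASH and 144204 in control, and log2 ratios were taken of CPM with 0.5 UMI added, for genes with at least 50 UMIs. With 1 library per diet, no test was made: genes were counted by size (1.5-fold between diets, 2-fold in both libraries elsewhere), and the study's Wilcoxon test over cells was not used. Exact 95% Poisson and Clopper-Pearson intervals and the floor of 3 UMIs cover counting error only. To compare shares of cells, cells were thinned to 1000 UMIs. T cells had at least 2 UMIs of *Cd3d*, *Cd3g* and *Cd3e*, B cells at least 2 of *Cd79a* and *Cd79b*. Doublets were sought with Scrublet and left in.

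The members and the gene lists were chosen with earlier results of these data known. Named were the gate markers, in each list at most 4 genes of the largest diet ratio, the NK and ILC1 side lists, the 12 highest and lowest diet ratios, and the 15 highest and 10 lowest ratios to T cells; others were chosen after their values were seen. Sequences and positions came from GENCODE for GRCm38. Python 3.11.15, numpy 2.4.6, pandas 2.3.3, scipy 1.17.1, scanpy 1.11.5, Biopython 1.88 and matplotlib 3.10.9 were used, and the ratio script was tested on simulated data. Alternatives were other limits of the gate, of depth and of gene minimum, another scaling, another added count, the mean over cells, leaving out marked or mixed cells, and thinning.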

Additional observations from a re-analysis of the deposited data

Results flagged for a closer look

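Of the named genes with at least 50 UMIs, 3 were past 1.5-fold between the diets one way in the gate and past 1.5-fold the other way in T cells of the same libraries, with both counting intervals beyond 0; the difference was not tested in any of them, since each population had 1 library per diet. *Asb2*, a gene of the ILC1 side, had a log2 ratio of NASH to control of -1.20 in the gate and 0.80 in T cells. *Ifng* was at -0.78 in the gate, within 1.5-fold without the mixed cells, and at 0.72 in T cells. *Cx3cr1* was at 1.14 in the gate, 0.38 without the mixed cells, and -1.37 in T cells.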

How the results depend on the processing

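The share of kept cells in the gate ranged over the alternatives from 0.889% to 1.35% in NASH and from 1.57% to 1.97% in control, and the lowest NASH share, 0.889%, came from cells with no UMI of *Clec4f* and *Cd5l*. Genes past 1.5-fold numbered 390 higher and 351 lower with a minimum of 20 UMIs and 2643 higher and 2129 lower with none, since ratios of few UMIs scatter widely; the other settings gave 63 to 112 higher and 65 to 92 lower. Genes lower in the gate than in T cells numbered 99 without the mixed cells. The NK side held 19.5% of control gate cells when 2 UMIs were needed to place a cell. Of the 930 ratios of 93 named genes under 10 settings, 883 stayed within the counting interval of the value reported, 42 lay outside it, and 5 of genes past 1.5-fold changed sign: *Lyz2* at -0.11 without the mixed cells, and *Kdr* at -0.23, *Dnase1l3* at -1.27, *Fcgr2b* at -0.22 and *Ptprb* at -0.87 in cells with no UMI of *Clec4f* and *Cd5l*; the cause was not tested. Genes within 1.5-fold that changed sign, such as *Gzma* and *Prf1*, are not among the 5. No paired analysis was possible because each diet had 1 library. The settings without mixed cells were chosen after seeing the data. Depth limits single genes: the log2 ratio of *Klra7*, with 13 UMIs in NASH and 40 in control, had an interval of -1.94 to 0.02.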

Other observations

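Some immune genes of the gate fell under the minimum of 50 UMIs or outside the lists' rule and were picked here after their values were seen. *Gbp4*, an interferon-inducible GTPase, had 6 UMIs in 5 of 46 NASH cells and 42 UMIs in 26 of 82 control cells, a log2 ratio of NASH to control of -2.0 (-3.63 to -0.86), while its relative *Gbp7* was at -0.08 (-0.71 to 0.51; 0.11 without the mixed cells). *Il4ra*, the receptor chain for IL-4, had 3 UMIs in NASH and 25 in control (-2.16, -4.72 to -0.64). *Cd69*, an early activation marker that also retains lymphocytes in tissue, had 9 UMIs in 7 NASH cells and 39 UMIs in 22 control cells (-1.35, -2.64 to -0.34), and was at 0.67 in T cells. *Il12rb1*, a chain of the IL-12 receptor, had no UMI in NASH and 11 in control, while *Il12rb2*, the other chain, had 20 and 23 UMIs (0.51, -0.44 to 1.43).

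Inhibitory receptors known from exhausted T cells were close to absent: *Pdcd1* had no UMI in either gate, *Havcr2* had 0 in NASH and 1 in control, *Lag3* 1 and 4, and *Ctla4* 0 and 3. *Klra2* (Ly49B), a Ly49 gene known from myeloid cells, had 14 UMIs in NASH, all in mixed cells, and none in control.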
